A study of Homo sapiens with 9 samples.

Results

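The interleukin-1 (IL-1) family genes described here are 5 ligand genes (IL1A, IL1B, IL1RN, IL18 and IL33), 4 receptor genes (IL1R1, IL1R2, IL1RAP and IL1RL1) and CASP1, the gene of a processing protease. They were taken by gene name from the deposited table, which held all 10 among 36385 genes. The cells were MG-63, a human osteosarcoma line widely used as a stand-in for osteoblasts, which the labels also call epithelial-like. They were grown on 3 kinds of titanium alloy disc, with 3 libraries each: boronized Ti6Al4V carrying HA (HA coating), Ti6Al4V with TiB2 (TiB2 surface) and untreated Ti6Al4V (bare alloy). Every group was kept for 7 days in osteogenic medium. Its additives were dexamethasone at 100 nM, a glucocorticoid that damps inflammatory gene expression, ascorbic acid at 50 µg/mL and beta-glycerophosphate at 10 mM. The labels state that the submitters left the TiB2 libraries out of their final analysis. Nothing in them tells whether the libraries of a surface were grown as independent cultures. The p-values therefore reflect only how much these libraries varied, and that variation may be technical. MG-63 is 1 tumour line.

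IL-1 alpha and IL-1 beta signal through IL1R1 paired with the accessory chain IL1RAP, which leads through MYD88 and IRAK kinases to NF-kB and MAP kinases. IL1RN encodes a receptor antagonist, and IL1R2 a decoy receptor that binds ligand without signalling. IL-18 and IL-33 are relatives with their own receptors, of which IL1RL1 is that of IL-33, and caspase-1 cleaves the precursors of IL-1 beta and IL-18 to their active forms. In bone, IL-1 is best known for promoting osteoclast formation and matrix breakdown. RNA levels say nothing of cleavage or release.

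The stretches upstream of 3 ligand genes are shown because these 3 genes had the largest differences between surfaces. They come from RefSeq promoter windows (GRCh38.p14), read 5′ to 3′ in the direction of the gene. Capitals mark matches, on either strand, to a TATA box (TATAAA), AP-1 (TGANTCA), CRE (TGACGTCA), C/EBP (TTNNGNAA) or NF-kB motif. The IL1A stretch is chr2:112784494-112784743 (minus strand), the IL1B stretch chr2:112836817-112837029 (minus strand) and the IL33 stretch chr9:6215557-6215806 (plus strand).
IL1A: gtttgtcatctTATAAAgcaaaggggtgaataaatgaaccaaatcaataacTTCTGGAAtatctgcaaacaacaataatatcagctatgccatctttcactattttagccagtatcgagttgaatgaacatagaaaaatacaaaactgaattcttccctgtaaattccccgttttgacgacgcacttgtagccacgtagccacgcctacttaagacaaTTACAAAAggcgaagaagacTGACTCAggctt
IL1B: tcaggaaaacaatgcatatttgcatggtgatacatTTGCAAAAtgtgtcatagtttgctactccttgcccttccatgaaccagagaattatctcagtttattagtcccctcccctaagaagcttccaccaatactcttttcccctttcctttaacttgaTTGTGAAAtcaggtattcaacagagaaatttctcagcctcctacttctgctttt
IL33: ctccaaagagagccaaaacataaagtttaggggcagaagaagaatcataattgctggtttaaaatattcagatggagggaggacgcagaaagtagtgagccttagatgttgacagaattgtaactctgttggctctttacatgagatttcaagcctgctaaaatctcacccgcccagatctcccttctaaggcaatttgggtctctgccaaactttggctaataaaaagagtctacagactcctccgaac
In the IL1A window a TATA box match began 239 bases before the start, C/EBP matches 199 and 32 bases before it, and an AP-1 match 12 bases before it. The IL1B window held 3 C/EBP matches, beginning 215, 91 and 41 bases before the RefSeq start. The last of these is not in the printed stretch, which leaves out the 37 bases that fall inside the deposited gene row. The IL33 window held 0 matches to these motifs. Of all 35116 windows of this length, 10.7% held a TATA box match, 6.57% AP-1, 1.65% CRE, 33.2% C/EBP and 9.96% NF-kB. Windows were found for 8 of the 10 genes.

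The IL-1 genes lay on 4 chromosomes of GRCh38 in the deposited table. IL1A (chr2:112773925-112784493), IL1B (chr2:112829751-112836816) and IL1RN (chr2:113099315-113134016) were neighbours in the ligand cluster of chromosome 2. IL1R2 (chr2:101991960-102028417), IL1R1 (chr2:102064544-102179866) and IL1RL1 (chr2:102311502-102346099) lay in the receptor cluster of the same chromosome. IL18 (chr11:112143253-112164093) and CASP1 (chr11:105025397-105035250) were on chromosome 11, IL33 (chr9:6215807-6257983) on chromosome 9 and IL1RAP (chr3:190514051-190657196) on chromosome 3. How the counting treated strand and reads with several matches is not given in the sources used here. CASP1, which shares near-identical sequence with CARD16, and IL1RL1, whose row overlaps IL18R1 on the same strand, are therefore uncertain.

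Libraries held 60528871 to 72542556 counts on the HA coating, 62951461 to 63413815 on the TiB2 surface and 58464306 to 63122541 on bare alloy. Below, a level is given as CPM (counts relative to the library's total, adjusted by TMM across the 9 libraries), and FPKM, which also divides by gene length, is used to compare genes with each other. A floor of 3 counts in a library corresponds to 0.0454 to 0.0547 CPM, and covers counting error only. Libraries of the HA group differed more among themselves than those of the other groups, with a median squared difference 43.4 to 69 times that of Poisson counting, against 12.5 to 14.8 times for TiB2 and 11.9 to 16.4 times for bare alloy. Bare replicate 1 stood apart in 4 rows of ribosomal DNA, which took 6.46% of its counts, against 0.0831% to 0.197% in the coated libraries and 0.617% and 1.07% in the other bare libraries.

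Compared with bare alloy, IL1A, IL1B, IL18, IL33 and CASP1 were higher on the HA coating, and IL1A, IL1B, IL18, IL33 and IL1R1 were higher on the TiB2 surface. IL1B and IL33 moved furthest, and both coatings had ligand transcripts higher without a passing difference in the antagonist IL1RN or the accessory chain IL1RAP. Of 9 IL-1 genes tested on the HA coating, 5 rose and 0 fell, where 5.02% of all 20117 genes tested rose, 4.88% fell and 9.89% passed in either direction. Of 8 tested on the TiB2 surface, 5 rose and 0 fell, where 12.9% of 20152 genes rose, 12.2% fell and 25.1% passed in either direction. The median log2 fold change was 1.21 over the 9 genes on HA, beside 0.02 over all genes tested, and 0.95 over the 8 genes on TiB2, beside 0.00 over all genes. Both comparisons use the same bare libraries. The IL-1 genes were chosen with earlier results of these data known, so their counts are not an independent test. IL33, with 0 counts in every bare library, entered both tests only through the coated libraries, where it was high. On HA the count fell to 3 (IL1A, IL1B and IL33) when any 1 bare library, replicate 1 with its ribosomal counts included, or HA replicate 2 was left out. On TiB2 it was 5 whichever library was left out. The test throughout is edgeR's quasi-likelihood test with Benjamini-Hochberg adjustment over all genes tested and a threshold of 0.05.

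**Figure D1:**
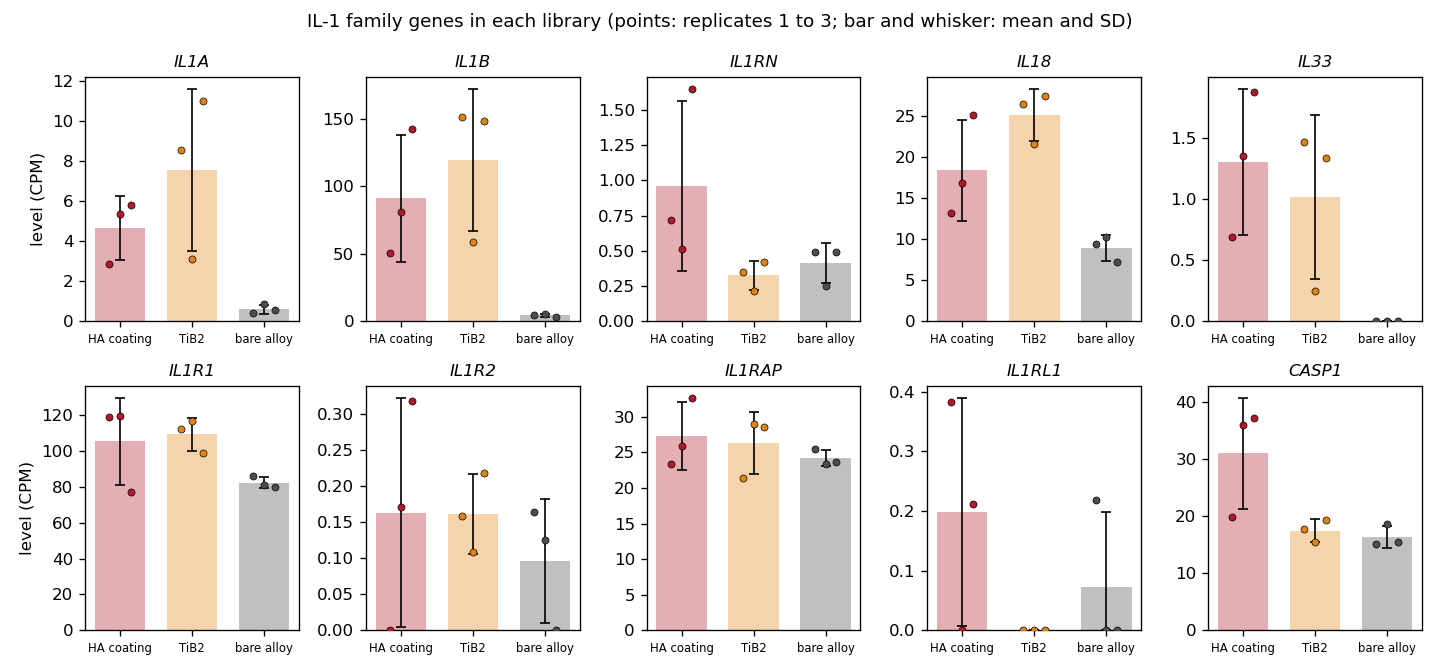
Level of each IL-1 family gene (CPM, linear axis from 0, own scale per gene) on the HA coating, TiB2 surface and bare alloy; points are replicates 1 to 3 from left to right, bars means and whiskers SD. For IL1B the coated libraries span 50.3 to 151 CPM and the bare ones 3.47 to 5.16 CPM, whereas IL1RAP overlaps between all surfaces.

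IL1B encodes the secreted agonist IL-1 beta. It had 50.3, 80.7 and 143 CPM in HA libraries 1 to 3, 151, 58.6 and 149 CPM in TiB2 libraries 1 to 3, and 4.39, 5.16 and 3.47 CPM in bare libraries 1 to 3. The lowest coated library was thus well above the highest bare one. The log2 fold change was 4.38 ± 0.38 (SE, 20.8-fold) for HA against bare alloy, with an edgeR adjusted p of 0.000488, and 4.78 ± 0.36 (27.4-fold) for TiB2 against bare alloy, with an edgeR adjusted p of 2.4e-05. Means were 91.2 ± 47 CPM on HA, 120 ± 52.8 on TiB2 and 4.34 ± 0.846 on bare alloy (SD, n = 3 each).

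IL1A encodes IL-1 alpha, which binds the same receptor and is active without cleavage by caspase-1. It had 2.86, 5.36 and 5.79 CPM in the HA libraries, 8.55, 3.09 and 11 CPM in the TiB2 libraries and 0.401, 0.845 and 0.576 CPM in the bare libraries. The coated libraries were all above the bare ones, and TiB2 replicate 2 and HA replicate 1 were the lowest of them. The log2 fold change was 2.92 ± 0.39 (7.58-fold) for HA, with an edgeR adjusted p of 0.00317, and 3.62 ± 0.47 (12.3-fold) for TiB2, with an edgeR adjusted p of 0.000603.

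IL33 encodes a nuclear cytokine released from damaged barrier and stromal cells. Its counts were 43, 87 and 124 in the HA libraries, 93, 16 and 86 in the TiB2 libraries and 0, 0 and 0 in the bare libraries. Set against a floor of 3 counts per library, its mean level was at least 25.9-fold higher on HA and at least 20.2-fold higher on TiB2 than on bare alloy, with edgeR adjusted p of 0.00318 and 0.00271. TiB2 replicate 2, at 0.247 CPM, was the lowest coated library, 5.94-fold below the highest TiB2 library.

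IL18 encodes IL-18, best known as an inducer of interferon-gamma. It had 13.1, 16.8 and 25.1 CPM in the HA libraries, 26.4, 21.5 and 27.5 CPM in the TiB2 libraries and 9.47, 10.2 and 7.18 CPM in the bare libraries, with no overlap between coated and bare. The log2 fold change was 1.02 ± 0.26 (2.03-fold) on HA, with an edgeR adjusted p of 0.0406, and 1.49 ± 0.15 (2.8-fold) on TiB2, with an edgeR adjusted p of 0.000163. The HA call was lost in 5 of 6 fits that left out 1 library, where the log2 fold change stayed between 0.74 and 1.22; it was kept without HA replicate 1 (edgeR adjusted p 0.0146) and reached 0.182 without bare replicate 3.

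IL1RN encodes the receptor antagonist. It had 0.718, 0.514 and 1.65 CPM in the HA libraries, 0.347, 0.216 and 0.42 CPM in the TiB2 libraries and 0.492, 0.25 and 0.494 CPM in the bare libraries. All 3 HA libraries lay above the bare ones, by a narrow margin for HA replicate 2. Neither difference passed, with a log2 fold change of 1.21 ± 0.55 on HA (edgeR adjusted p 0.195, 95% interval -0.04 to 2.45) and of -0.33 ± 0.52 on TiB2 (edgeR adjusted p 0.708).

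IL1R1, the signalling receptor, was the most abundant receptor gene of the family on every surface. It had 119, 120 and 77.3 CPM in the HA libraries, 112, 117 and 99 CPM in the TiB2 libraries and 85.8, 81.2 and 80.2 CPM in the bare libraries. HA replicate 3 was below every bare library, while the TiB2 libraries were all above them. The log2 fold change was 0.41 ± 0.08 (1.33-fold) on TiB2, with an edgeR adjusted p of 0.00482, a call that was lost when all 9 libraries shared 1 fit (edgeR adjusted p 0.18). On HA it was 0.35 ± 0.20 (edgeR adjusted p 0.293, 95% interval -0.10 to 0.80), and 0.54 without HA replicate 3, where edgeR's adjusted p was 0.0334.

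IL1RAP, the chain shared by the IL-1 and IL-33 receptors, had 23.4, 25.9 and 32.7 CPM in the HA libraries, 21.4, 29.1 and 28.6 CPM in the TiB2 libraries and 25.5, 23.4 and 23.7 CPM in the bare libraries. The groups overlapped, and the log2 fold changes of 0.16 ± 0.17 on HA and 0.12 ± 0.13 on TiB2 did not pass (edgeR adjusted p 0.58 and 0.536). The decoy gene IL1R2 had 0, 11 and 21 counts in the HA libraries, 10, 7 and 14 in the TiB2 libraries and 9, 8 and 0 in the bare libraries, and was too low to be tested against bare alloy. IL1RL1 had 24, 0 and 14 counts in the HA libraries, 0, 0 and 0 in the TiB2 libraries and 12, 0 and 0 in the bare libraries. Its log2 fold change on HA was 1.45 ± 1.61 (edgeR adjusted p 0.604), and it was not tested on TiB2. The values of both receptors rest on at most 24 counts a library.

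CASP1 had 19.8, 36 and 37.3 CPM in the HA libraries, 17.8, 15.4 and 19.3 CPM in the TiB2 libraries and 15.1, 18.6 and 15.5 CPM in the bare libraries. HA replicates 2 and 3 stood high, while HA replicate 1 was just above the bare range and the TiB2 libraries overlapped it. The log2 fold change was 0.91 ± 0.25 (1.88-fold) on HA, with an edgeR adjusted p of 0.0493, and 0.09 ± 0.13 on TiB2, with an edgeR adjusted p of 0.647 and a 95% interval of -0.19 to 0.38. The HA call was lost in 5 of 6 fits that left out 1 library and kept without HA replicate 1 (edgeR adjusted p 0.00425); without bare replicate 3 it reached 0.195. CARD16, its near-identical neighbour, had 48, 57 and 73 counts in the HA libraries, 48, 12 and 19 in the TiB2 libraries and 19, 31 and 15 in the bare libraries.

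**Figure D2:**
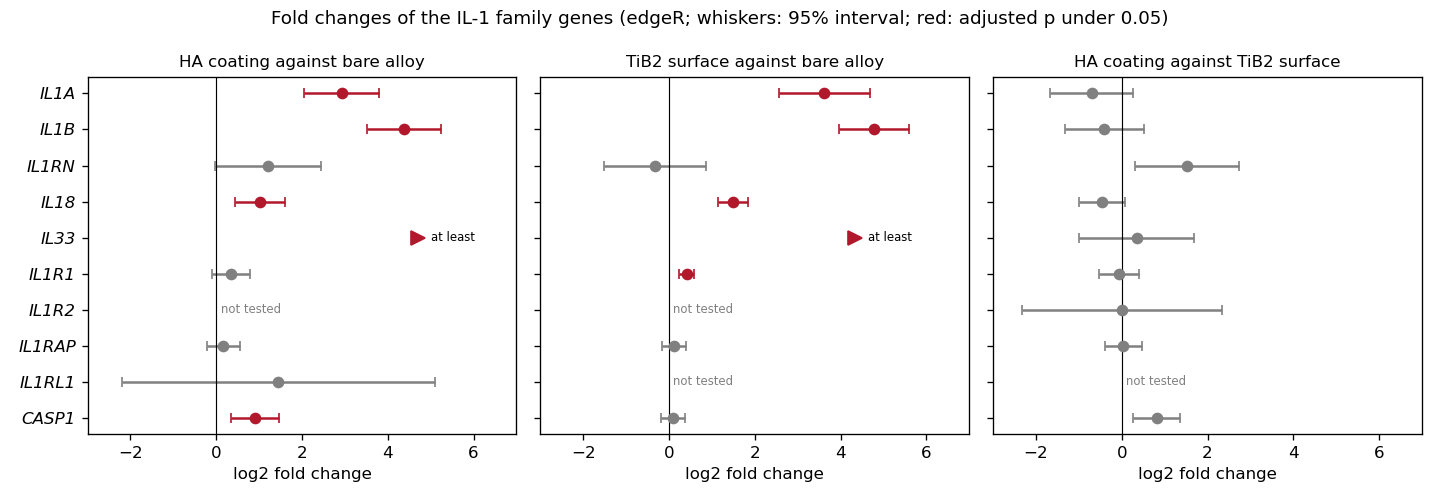
Log2 fold change of each IL-1 family gene from edgeR in 3 comparisons, with whiskers for the 95% interval, red where the adjusted p was under 0.05, and triangles for lower bounds where bare alloy had 0 counts. IL1B lies at 4.38 and 4.78 against bare alloy, and the intervals of IL1A, IL1B and IL18 for HA against TiB2 include 0.

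The direct comparison of the coatings tested 9 IL-1 genes, and 0 passed, where 0.632% of 20086 genes did (0.179% higher and 0.453% lower on HA). At an unadjusted p under 0.05 there were 2, IL1RN and CASP1, both higher on HA. DESeq2 and limma on FPKM with either pseudocount also called 0. For IL1RN the log2 fold change of HA over TiB2 was 1.53 ± 0.54 (edgeR adjusted p 0.348), and for CASP1 it was 0.81 ± 0.24 (edgeR adjusted p 0.263). The HA libraries were above the TiB2 ones for both genes, and CASP1 passed without HA replicate 1 (1.05, edgeR adjusted p 0.0215). For the agonists the 95% intervals of HA over TiB2 ran from -1.32 to 0.51 for IL1B, from -1.67 to 0.26 for IL1A, from -0.998 to 0.066 for IL18 and from -0.99 to 1.69 for IL33. These intervals leave room for differences in either direction.

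Per length, the order of the IL-1 genes was not the same on coated and bare alloy. On HA the FPKM means ran from IL1B (28) and IL1R1 (14.2), which overlapped, to CASP1 (7.35) and IL18 (6.56), which overlapped, then IL1RAP (2.22) and IL1A (2.17), which overlapped. On TiB2 the order was IL1B (38.4), IL1R1 (14.9), IL18 (9.35), CASP1 (4.26), IL1A (3.62) and IL1RAP (2.21), with overlap between CASP1 and IL1A and between IL1A and IL1RAP. On bare alloy it was IL1R1 (10.8), CASP1 (3.87) and IL18 (3.21), which overlapped, then IL1RAP (1.96), IL1B (1.34) and IL1A (0.28). IL33, IL1RN, IL1R2 and IL1RL1 were below 1 FPKM on every surface, with IL33 at 0.373 FPKM on HA, 0.299 on TiB2 and 0 on bare alloy.

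IL1B made up 71%, 73.5% and 77.8% of the summed FPKM of the 5 ligand genes in the HA libraries, 77.1%, 66.3% and 74.9% in the TiB2 libraries and 26.8%, 28% and 26.6% in the bare libraries. IL18 made up 21.4%, 17.7% and 15.8% in the HA libraries, 15.5%, 28.1% and 16% in the TiB2 libraries and 67.2%, 64.3% and 63.9% in the bare libraries. The leading ligand transcript was therefore IL1B in every coated library and IL18 in every bare one.

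The FPKM ratio of IL1B to its antagonist IL1RN was 92.7, 203 and 109 in the HA libraries, 559, 401 and 461 in the TiB2 libraries and 11.5, 28.8 and 8.79 in the bare libraries. The 3 groups did not overlap, and each pair gave a two-sided exact permutation p of 0.1, the smallest that 20 splits of 3 against 3 allow, so no pair could reach 0.05. The ratio of IL1B to IL1A was 11.8, 10.1 and 16.5 in the HA libraries, 11.9, 12.8 and 9.04 in the TiB2 libraries and 7.35, 4.15 and 4.12 in the bare libraries. The coated groups overlapped (exact permutation p 0.6) and each lay above bare alloy (exact permutation p 0.1). The ratio of IL1B to IL1R1 was 1.00, 1.59 and 4.36 in the HA libraries, 3.19, 1.19 and 3.55 in the TiB2 libraries and 0.12, 0.15 and 0.102 in the bare libraries, again with no overlap of coated and bare. The IL1RN values behind the first ratio rest on 14 to 109 counts a library.

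**Figure D3:**
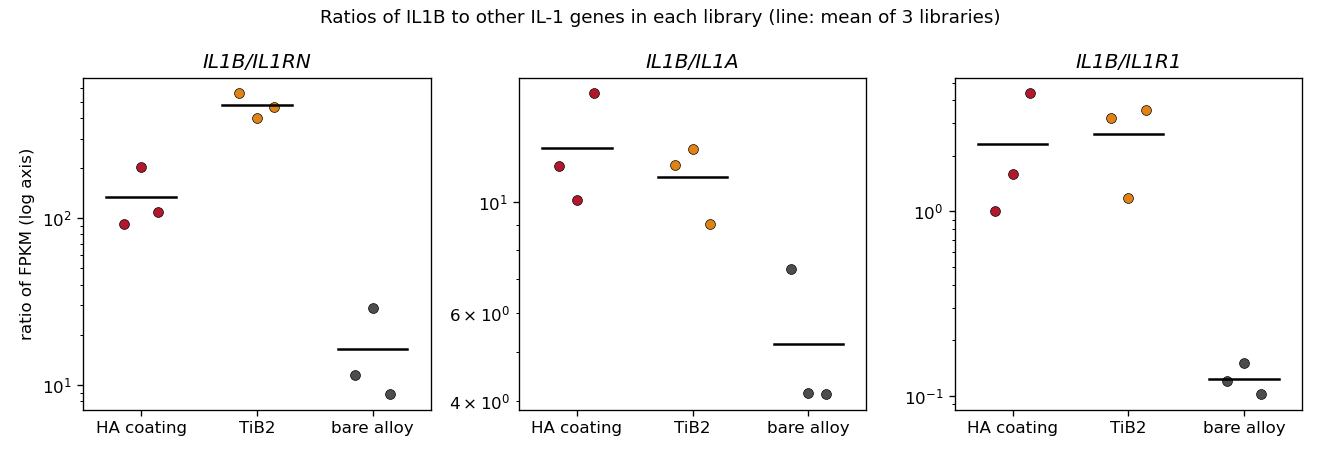
Ratio of the FPKM of IL1B to that of IL1RN, IL1A and IL1R1 in each library (log axes), on the HA coating, TiB2 surface and bare alloy; lines are means of 3 libraries. The IL1B to IL1RN ratio averages 135 on HA, 473 on TiB2 and 16.4 on bare alloy.

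Within a coating the IL-1 genes tended to be high or low in the same library. By CPM, HA replicate 1 was the lowest HA library for 7 of the 10 genes and HA replicate 3 the highest for 8. By FPKM, HA replicate 2 was above replicate 3 for IL1A (2.66 against 2.48) and CASP1 (9.07 against 8.1). HA replicate 3 was at the same time the lowest of its group for IL1R1, 1.55-fold below the highest. TiB2 replicate 2 was the lowest TiB2 library for 7 genes, by 3.57-fold for IL1A and 2.58-fold for IL1B from highest to lowest. On bare alloy IL1B spread by 1.49-fold and IL1A by 2.11-fold. The counts of lowest and highest libraries include IL1R2, at 0, 11 and 21 counts in the HA libraries. They have no share over all genes beside them, so they do not set the IL-1 genes apart.

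The other genes of the pathway were counted in lists. Of 13 further IL-1 family ligands and receptors 9 were in the table. On HA 0 of 5 tested passed (median log2 fold change -0.01), where 9.89% of all genes did. On TiB2 2 of 6 rose and 0 fell (median 0.56), where 12.9% of all genes rose and 12.2% fell. The risers, named after their values were seen, were IL36G and IL37, neighbours of IL1B in the ligand cluster. Both were kept by the filter on low counts only through the TiB2 libraries, where they were high. IL37 was not tested on HA, so the counts for the 2 coatings do not cover the same genes. IL36G, an epithelial agonist, had 21, 38 and 22 counts in the HA libraries, 25, 37 and 44 in the TiB2 libraries and 5, 4 and 0 in the bare libraries. IL37, an anti-inflammatory member, had 0, 8 and 33 counts in the HA libraries, 25, 17 and 31 in the TiB2 libraries and 0, 0 and 0 in the bare libraries. SIGIRR, a receptor that restrains IL-1 signalling, averaged 24.8 CPM on HA, 18.6 on TiB2 and 17.9 on bare alloy, and did not pass. IL18BP, which binds and blocks IL-18, averaged 11.1 CPM on HA, 12.2 on TiB2 and 14.2 on bare alloy, and did not pass either.

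Of 21 genes of IL-1 receptor signalling, 3 rose and 0 fell on HA (median log2 fold change 0.00), where 5.02% of all genes rose and 4.88% fell. On TiB2 7 rose and 2 fell (median 0.07), where 12.9% of all genes rose and 12.2% fell. IRAK2, a kinase of the receptor complex, averaged 18.1 CPM on HA, 25.4 on TiB2 and 6.63 on bare alloy, a 2.71-fold rise on HA (edgeR adjusted p 0.00581) and a 3.82-fold rise on TiB2 (edgeR adjusted p 1.4e-05). TIFA, an adaptor of TRAF6, rose 2.4-fold on HA (edgeR adjusted p 0.0105) and 2.12-fold on TiB2 (edgeR adjusted p 0.00139). IKBKB, the catalytic kinase of the NF-kB pathway, rose 1.84-fold on HA (edgeR adjusted p 0.0164) and 2.23-fold on TiB2 (edgeR adjusted p 6.4e-06). MAP3K8 rose 2.66-fold on TiB2 (edgeR adjusted p 0.00456), and its 1.83-fold difference on HA did not pass (edgeR adjusted p 0.0836). The fallers on TiB2 were the adaptor MYD88 and the inhibitor TOLLIP. The IKBKB call on HA was lost in 4 of 6 fits that left out 1 library and the TIFA call in 1.

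Of 24 inflammasome genes and caspase-1 partners 22 were in the table and 17 tested, of which 1 rose and 0 fell on HA (median log2 fold change 0.08), and 5 rose and 3 fell on TiB2 (median 0.12). The 5.88% that rose on HA is near the 5.02% of all genes that did. On TiB2 29.4% of the list rose, beside 12.9% of all genes. The fallers were 0 of 17 on HA, where 4.88% of all genes fell, and 3 of 17 on TiB2, where 12.2% fell. PANX1, a membrane channel, rose 1.65-fold on HA (edgeR adjusted p 0.0273, lost in 3 of 6 fits that left out 1 library) and 1.68-fold on TiB2 (edgeR adjusted p 0.000896). MEFV, which encodes the sensor pyrin, rose 12.6-fold on TiB2 (edgeR adjusted p 0.00735). It averaged 2.15 CPM on TiB2, 1.09 on HA and 0.17 on bare alloy, so its folds rest on a low bare level. On HA it was 6.34-fold higher, without overlap, and did not pass (edgeR adjusted p 0.1185). NEK7, GSDMD and TXNIP fell on TiB2. PYCARD, the adaptor that links most inflammasome sensors to caspase-1, had 0 counts in all HA libraries, 3, 0 and 0 in the TiB2 libraries and 7, 0 and 0 in the bare libraries, and the sensor gene NLRP3 had 5 to 43 counts in any library.

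Of 30 genes known to respond to IL-1, which other inflammatory signals also induce, 29 were tested. The list was chosen with earlier results of these data known, so its counts are not an independent test. On HA 23 rose and 1 fell (median log2 fold change 2.05), where 5.02% of all genes rose and 4.88% fell (median 0.02). On TiB2 25 rose and 0 fell (median 2.54), where 12.9% of all genes rose and 12.2% fell (median 0.00). The 23 that rose on HA were all among the 25 on TiB2, and these comparisons share their bare libraries. CXCL8, a neutrophil chemokine, had 163, 240 and 355 CPM in the HA libraries, 377, 140 and 373 CPM in the TiB2 libraries and 4.61, 5.74 and 5.22 CPM in the bare libraries, a 48.1-fold rise on HA (edgeR adjusted p 5.2e-05). CXCL1, another such chemokine, rose 35.2-fold on HA (edgeR adjusted p 7.3e-06). Both also rose on TiB2, with log2 fold changes of 5.83 for CXCL8 (edgeR adjusted p 1.1e-05) and 4.27 for CXCL1 (edgeR adjusted p 2e-05). On HA these log2 fold changes were 5.59 and 5.14. CSF3, CSF2 and CCL20 had 0 counts in all bare libraries. Their means were at least 28.1-fold, 17.1-fold and 12.6-fold higher on HA and at least 29.3-fold, 73.8-fold and 78.5-fold higher on TiB2, against the floor of 3 counts per library. CFB, a complement gene, was the faller on HA.

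**Figure D4:**
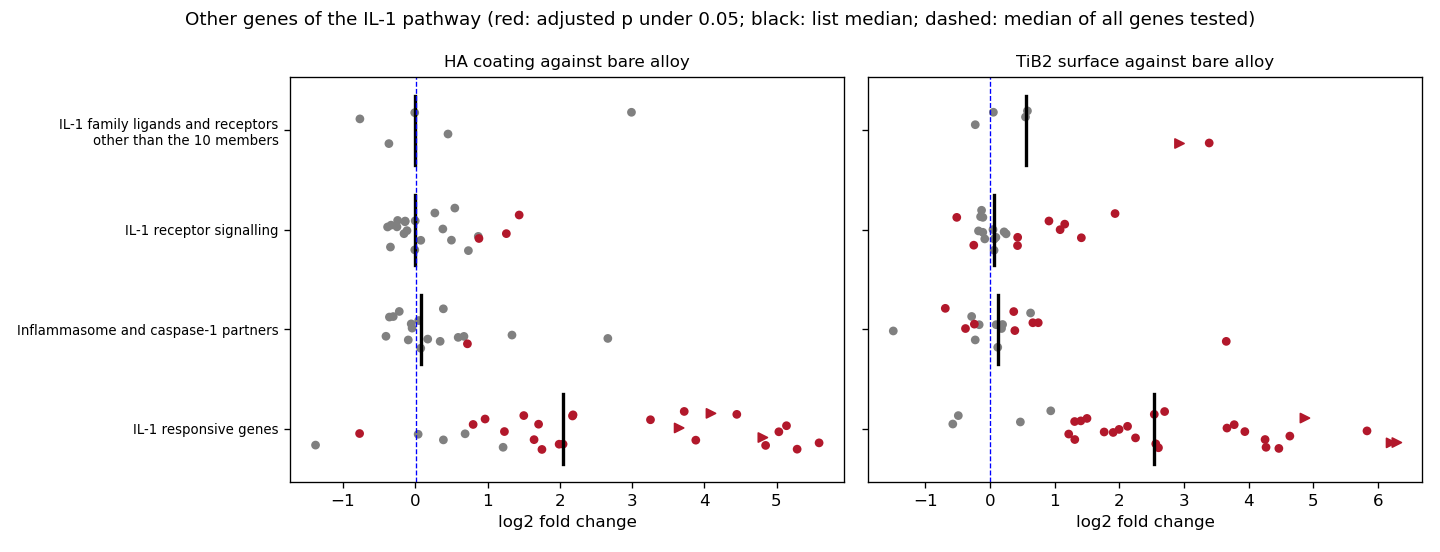
Log2 fold change from edgeR of each tested gene in 4 lists of the IL-1 pathway, on the HA coating (left) and the TiB2 surface (right) against bare alloy; red points passed, triangles are lower bounds, black lines list medians and dashed lines the median of all genes. The IL-1 responsive genes have medians of 2.05 and 2.54, and the signalling genes 0.00 and 0.07.

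Between the coatings, 2 of the 29 responsive genes passed, where 0.632% of all genes did. MMP1, a collagenase, had 52.2, 65 and 205 CPM in the HA libraries and 19.4, 9.78 and 17.2 CPM in the TiB2 libraries, a log2 fold change of 2.78 ± 0.49 (edgeR adjusted p 0.0415). CSF2 had 0.925, 0.592 and 1.06 CPM in the HA libraries and 5.22, 2.21 and 3.71 CPM in the TiB2 libraries, a log2 fold change of -2.12 ± 0.38 (edgeR adjusted p 0.0415). Each call was lost in 4 of 6 fits that left out 1 library. Against bare alloy MMP1 rose on both coatings. Its log2 fold change was 5.03 on HA (edgeR adjusted p 0.00117) and 2.25 on TiB2 (edgeR adjusted p 0.000256).

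Across the 9 libraries, the genes whose log2 level was most like that of IL1B among 13764 compared were TMEM156, CXCL8, SLC39A8, TNFAIP8 and DRAM1 (Pearson's r 0.997 to 0.989). Those most like IL1R1 were FGD6, SCLY, PPARGC1B, LINC00641 and IQGAP3 (r 0.974 to 0.957). The points share their surfaces and their libraries, so differences between surfaces and between libraries of 1 surface both enter these values, which carry no test.

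Markers of other cell types were read beside these results. The mesenchymal list held by MG-63 (12 genes, none at 0) summed to 7309 to 13060 CPM on HA, 11230 to 12090 on TiB2 and 21510 to 24040 on bare alloy. Against bare alloy, 2 of its genes rose and 5 fell on HA, and 3 rose and 9 fell on TiB2. For this and the marker counts below, 5.02% of all genes rose and 4.88% fell on HA. On TiB2 12.9% rose and 12.2% fell. Of 12 monocyte and macrophage markers 11 were in the table, and they summed to 58.6 to 89.5 CPM on HA, 80.2 to 95.8 on TiB2 and 69.9 to 82.1 on bare alloy, mostly CD68. AIF1 was at 0 on HA, LYZ and CD163 were at 0 on TiB2 and bare alloy, and 0 of 5 passed on HA and 1 of 7, ITGAM, on TiB2. The 11 T cell markers summed to 0.333 to 0.973 CPM on HA, 13 to 14.5 on TiB2 and 0.546 to 11.2 on bare alloy, and CD3E was at 0 in 4 libraries, the HA libraries and bare replicate 1. On HA 6 of the 11, namely CD3D, CD3E, CD3G, CD2, LCK and TRBC1, were at 0. Of the T cell markers tested, 1 of 3 fell on HA and 1 of 7 rose on TiB2 against bare alloy. Between the coatings, 4 of 6 were lower on HA and 0 higher, where 0.453% of all genes were lower. Of 8 neutrophil markers 5 were in the table, at 0.718 to 4.34 CPM on HA, 0.311 to 0.695 on TiB2 and 0.51 to 1.14 on bare alloy, and of those tested 1 of 2, S100A9, rose on HA and 1 of 1, ELANE, fell on TiB2. Epithelial markers summed to 174 to 239 CPM on HA, 232 to 241 on TiB2 and 162 to 203 on bare alloy, endothelial ones to 30.8 to 33.1 on HA, 24.6 to 28.9 on TiB2 and 39.3 to 49.8 on bare alloy, and mast cell ones to 0.447 to 0.903 on HA, 0.747 to 0.803 on TiB2 and 2.39 to 2.99 on bare alloy. Against bare alloy, 0 of 7 epithelial markers passed on HA and 3 of 8 rose on TiB2. Of the endothelial ones, 1 of 6 rose and 1 fell on HA, and 1 of 5 fell on TiB2. Of the mast cell ones, 1 of 3 rose and 1 fell on HA, and 2 of 2 fell on TiB2. Their part in the IL-1 results was not tested. In such bulk samples, fewer cells of a kind and less RNA per cell cannot be told apart.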

How the data were processed

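RNA-seq libraries of MG-63 cells on 3 surfaces were used, 3 per surface, grouped by the sample labels. Per the labels' protocols, TRIzol was used for RNA extraction and NEBNext Ultra for library preparation. The authors deposited 1 table of 36385 genes, giving for each library raw counts and FPKM. Per the submitters' processing notes, cutadapt 2.10, HISAT2 2.2.1, StringTie 2.1.4, featureCounts 2.0.1 and limma were used on GRCh38, with no step named for each. Of the deposited counts from 1 to 20, 55.5% were even. Library totals are given in the report; intervals and floors cover counting error only.

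Each comparison used its own 6 libraries. Genes were kept by filterByExpr, scaled by TMM and tested with edgeR 4.0.16 (R 4.3.3; glmQLFit, glmQLFTest, two-sided), with Benjamini-Hochberg adjustment over all genes tested and a threshold of 0.05. The standard error is the log2 fold change divided by the square root of F. The steps were tested on simulated counts with 200 changed genes. Promoter windows and figures used Python 3.11.15 with matplotlib 3.10.9 and pandas 2.3.3. Alternatives were DESeq2 size factors, DESeq2's test (1.42.0), limma (3.58.1) on log2(FPKM + 1) and log2(FPKM + 0.1), no filter, a mean FPKM of at least 1, all 9 libraries in 1 fit, a replicate block, leaving out libraries, and a GC and length offset, the last chosen after seeing the data.

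The 10 genes and all lists were chosen with earlier results of these data known. Named genes were the 10 members and, per list, up to 4 genes past the threshold with the largest change on HA against bare alloy and up to 2 in each other comparison, with a mean of at least 1 CPM in the higher group. Where none passed, the genes with the highest FPKM were named. Likeness used log2(CPM + 0.5). Exceptions to this rule are genes named in short counts, marker genes and CARD16, chosen after their values were seen.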

Additional observations from a re-analysis of the deposited data

How the results depend on the processing

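In both comparisons with bare alloy, IL1A and IL1B kept their calls under every alternative run, and IL18 did on TiB2. IL33 kept its calls wherever it was tested, but a mean FPKM of at least 1 removed it from both comparisons, leaving 4 calls on TiB2. Of the IL-1 genes, 5 passed on HA against bare alloy, but 3 with no filter, with a mean FPKM of at least 1, with the replicate block and without bare replicates 2 and 3 together, and 3 to 5 when 1 library was left out. The block cost the calls of IL18 (edgeR adjusted p 0.0783) and CASP1 (0.0575), and limma on log2(FPKM + 1) and log2(FPKM + 0.1) cost that of CASP1 (limma adjusted p 0.0742 and 0.0671), leaving 4. Leaving out 1 library gave 5 in each fit for TiB2 against bare alloy and 0 to 1 for HA against TiB2. Of the pathway lists, 28 genes passed on HA, 12 without bare replicates 2 and 3 together and 19 to 35 with 1 library left out. For HA against TiB2, 2 list genes passed, 7 with DESeq2, 1 with limma on log2(FPKM + 1), 0 with no filter, 0 with a mean FPKM of at least 1, 1 with all 9 libraries in 1 fit, 4 with the replicate block and 0 to 9 with 1 library left out. Over all genes, 1990 passed on HA against bare alloy, 3562 with DESeq2, 1093 with no filter, 3518 with all 9 libraries in 1 fit, 3386 with the GC and length offset (values for 19508 of 20117 genes), 286 without bare replicates 2 and 3 together and 598 to 4185 with 1 library left out. On TiB2 against bare alloy 5059 passed, 2132 with all 9 libraries in 1 fit and 3685 to 4211 with 1 left out. For HA against TiB2 127 passed, 501 with DESeq2, 35 with no filter, 52 with a mean FPKM of at least 1, 67 with all 9 libraries in 1 fit, 195 with the replicate block and 49 to 1224 with 1 left out. The cause of these shifts was not tested. No shared deviation of same-numbered libraries was seen (correlations of -0.077 to 0.039). With 3 libraries per surface, this cannot tell whether same-numbered libraries were handled together. Of 1024 gene values under alternatives, 962 kept direction and side of the threshold, 51 lost a call, 11 gained one and 0 reversed a called direction, while 25 values called in neither setting changed sign. IL1R2 and IL1RL1 had at most 24 counts a library, which limits the precision of their values.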
